A study of Rattus norvegicus with 6 samples.

Results

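Genes that carry a cell through division and copy its DNA were followed in aortas of rats with failing kidneys. The set held 41 named genes of the G1 phase, of DNA replication, of mitosis and of the brakes on division. They were chosen by symbol, and all 41 were found in a table of 24005 genes and kept whatever their level. All rats had 5/6 of the kidney mass removed in 2 operations and ate a diet with 1.2% phosphorus to speed up calcification. The exosome group was given ANCR/E7-EXO, engineered exosomes, at 10 mg/kg by tail vein at intervals of 5 days. The saline group was given saline over 13 weeks instead. The sources used here give no strain, sex or age, and the libraries analysed hold no group without kidney disease and no group given unmodified exosomes. Each group had 3 RNA-seq libraries of aorta. Levels are FPKM, which divides the reads of a gene by its length and by the library total, so that levels of different genes can be set side by side.

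A dividing cell passes from G1 through DNA synthesis (S phase) and G2 into mitosis. D-type cyclins with the kinases CDK4 and CDK6 open the way, cyclin E with CDK2 and the E2F factors switch on S phase, the MCM helicase and the PCNA clamp serve replication, and CDK1 with the A- and B-type cyclins drives mitosis. Many S-phase and mitotic genes are transcribed mainly in cycling cells, whereas D-type cyclins, CDK4 and inhibitors such as p27 are also made by resting cells. Smooth muscle of the adult aorta rarely divides, and its return to division is a known feature of vessel injury.

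The libraries had implied totals of 28063355 to 44561082 reads or read pairs. The smooth muscle genes Acta2 and Myh11 stood at 4584 to 9086 FPKM and 1463 to 2109 FPKM. The summed level of 6 endothelial markers was 76.9 to 106.3 FPKM with saline and 124.0 to 192.5 FPKM with exosomes. That of 6 macrophage markers was 73.0 to 84.0 FPKM with saline and 102.8 to 124.2 FPKM with exosomes. In each of these lists 4 of 6 markers had groups that did not overlap, with exosomes above. Of the 11742 genes with a mean of at least 1 FPKM, 9.40% had separate groups with exosomes above. All 8 lymphocyte markers stayed under 1 FPKM in every library. No marker on the lists for smooth muscle, fibroblasts, red cells, neutrophils and mast cells, adipocytes, mesothelium or Schwann cells had separate groups. Single libraries stood apart, with summed adipocyte markers at 1099 FPKM in saline 2 against 318.1 to 627.3 FPKM in the others, and summed mesothelial markers at 30.1 FPKM in saline 1 against 0.239 to 10.5 FPKM. In whole tissue, fewer cells of a type and less RNA per cell cannot be told apart. The part of these cell types in the differences given here was not tested.

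Most genes of G2 and mitosis were close to silent in both groups. The brakes and the G1 cyclins and kinases other than Cdk6 were well expressed. Of the 18 genes of G2 and mitosis, 16 had a mean under 1 FPKM over the 6 libraries, and 10 stayed under 0.5 FPKM in every library. Mki67, which encodes the proliferation antigen Ki-67, stood at 0.145, 0.151 and 0.336 FPKM with saline and 0.165, 0.188 and 0.274 FPKM with exosomes. The exosome values lay inside the saline range, at means of 0.211 ± 0.109 and 0.209 ± 0.0578 FPKM (SD, n = 3 each). By comparison, the median of the mean levels was 36.2 FPKM over the 5 G1 cyclins and kinases and 40.4 FPKM over the 3 brakes. Ranked by mean level among the 18430 genes detected, Btg1 stood at the 96.5th percentile and Ccnd2 at the 95.7th. Ccnd3 stood at the 93.6th and Cdkn1b at the 91.0th, against the 24.6th for Mki67. Cdkn1c and Ccnd1 were at the 67.6th and 66.8th. Cdk6, at the 37.6th, was below the mitotic genes Kif20a (39.5th) and Bub1 (38.2nd).

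**Figure D1:**
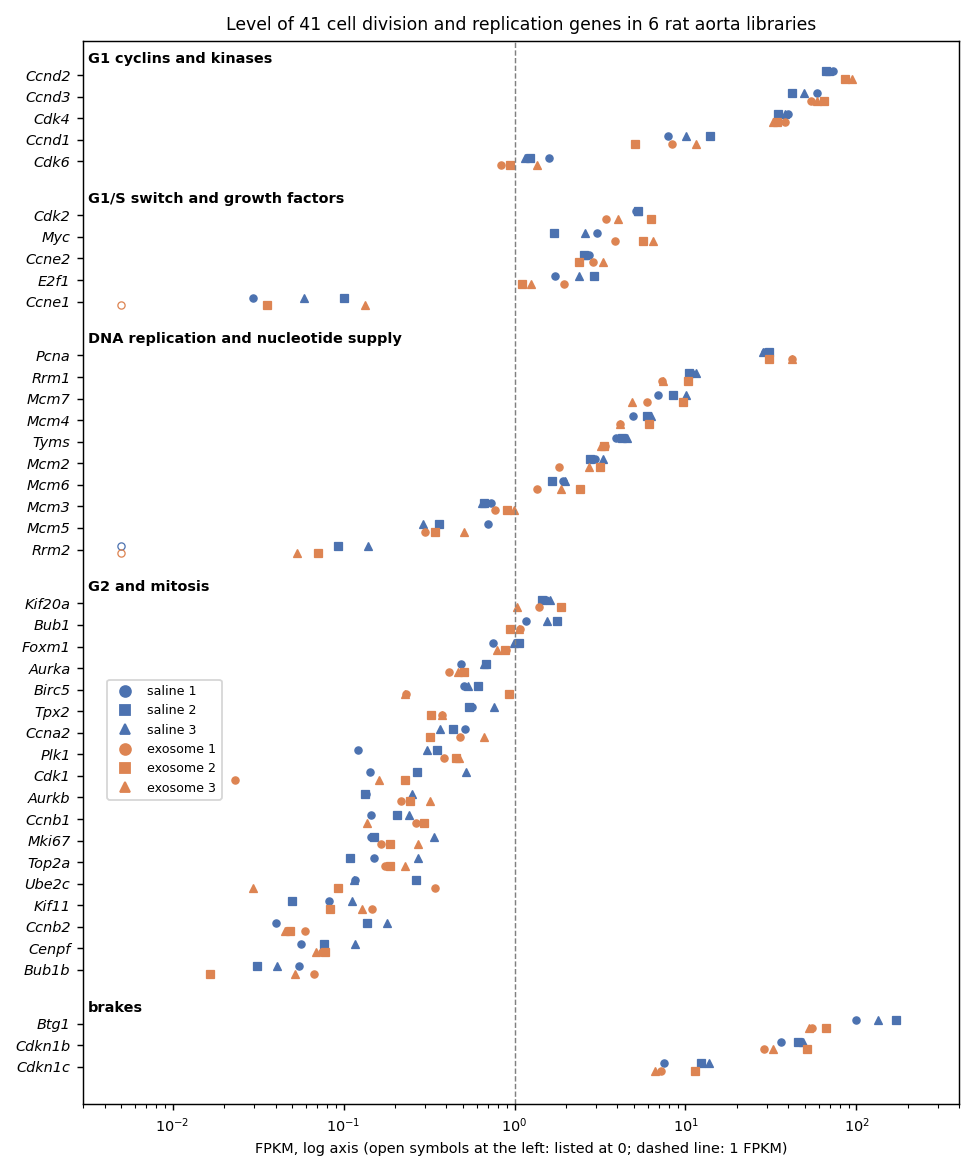
Level of each of the 41 genes in FPKM (log axis) in the 3 saline (blue) and 3 exosome (orange) libraries, by role, with circles, squares and triangles for libraries 1, 2 and 3 and open symbols for values listed at 0. Most genes of G2 and mitosis lie left of the dashed line at 1 FPKM in both groups, while Ccnd2, Ccnd3, Cdk4, Pcna, Btg1 and Cdkn1b lie far to its right in every library.

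No member passed the adjusted threshold between the exosome and saline libraries. With limma on log2(FPKM + 1), 21 members had a mean of at least 1 FPKM and were tested among 11742 genes. Of these, 0 were past a Benjamini-Hochberg adjusted p of 0.05 in either direction, against 0.00852% of all genes tested, which was 1 gene, Zbtb16. With no filter on level, 0 of the 41 passed, against 0.00543% of the 18430 genes detected. Voom, run on recovered whole reads, called 0 members as well. A fit with estimated library weights called 12 of the 21, which is 57.1%, against 27.8% of all genes tested. The estimation of these weights stopped before reaching its tolerance, and exosome 1 was given a weight of 9.20. At an unadjusted p under 0.05, 5 of the 21 were found, against 16.0% of all genes tested. Of these, 3 were higher with exosomes (Ccnd2, Myc and Pcna; background 6.75%) and 2 lower (Rrm1 and Btg1; background 9.24%). With no filter, Tpx2 joined the lower genes, which made 6 of 41 against a background of 12.0% (5.01% higher and 6.98% lower).

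The groups of 3 libraries did not overlap for 9 of the 41 members, against 16.9% of the genes detected. Exosome libraries lay above for 4 of them (Ccnd2, Myc, Mcm3 and Plk1; background 7.15%) and below for 5 (Tyms, Rrm1, Bub1, Tpx2 and Btg1; background 9.75%). Among the 21 tested members 6 had separate groups, against 21.1% of all tested genes, with 2 above (background 9.40%) and 4 below (background 11.7%). Of the 21, 16 had a lower and 5 a higher fitted mean with exosomes, where 39.3% of all genes tested were higher. The median log2 difference of the 21 was -0.19, against -0.07 for all genes tested. Over all 41 the median was -0.06, against -0.025 for the genes detected. The median of the tested members was 0.06 with exosome 1 and 3 both left out, against 0.027 for all genes tested. The 5 members at an unadjusted p under 0.05 became 10 without exosome 2, and 3 without saline 2, without saline 3 or without exosome 3. The share of all tested genes moved with them, from 16.0% to 27.3% without exosome 2, 10.07% without saline 2, 8.44% without saline 3 and 8.02% without exosome 3.

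**Figure D2:**
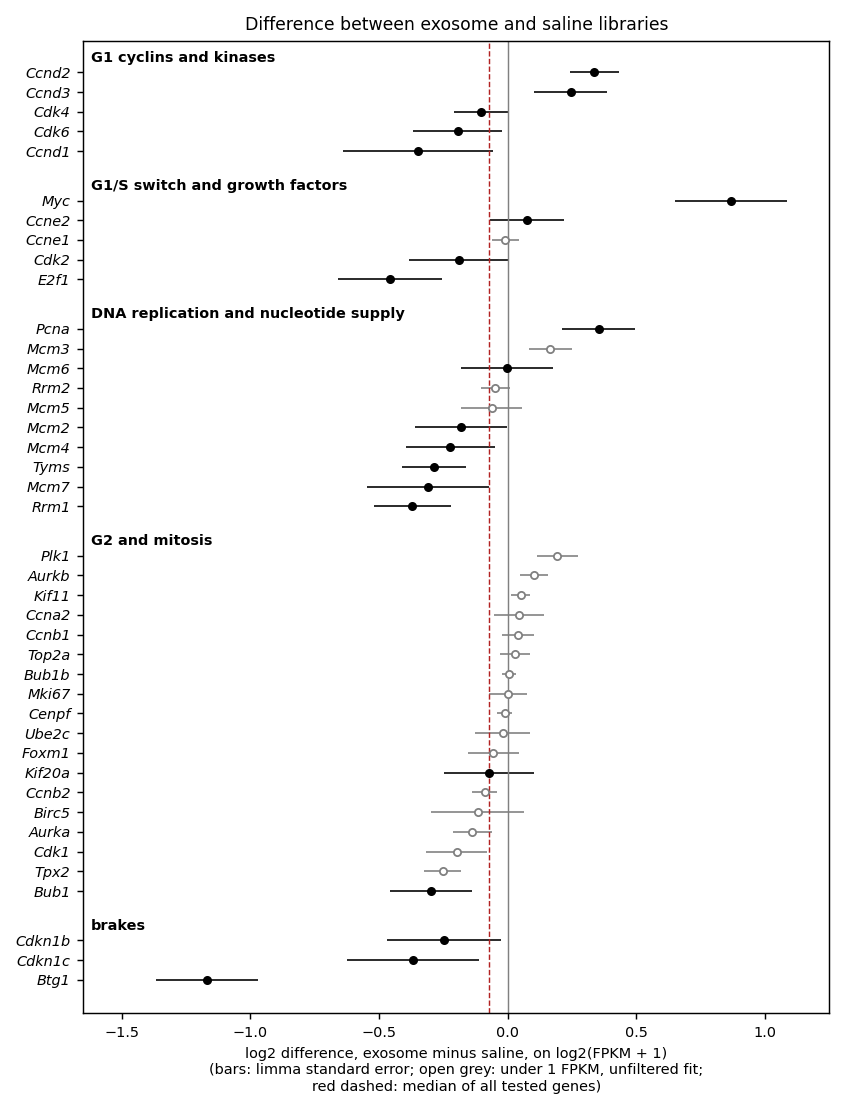
Log2 difference between exosome and saline libraries for the 41 genes on the log2(FPKM + 1) scale, with limma standard errors as bars. Filled points are the 21 tested genes, open grey points those under 1 FPKM, whose differences the added 1 compresses towards 0, and the dashed line is the median of all tested genes, -0.07. Btg1 (-1.17) and Myc (0.87) stand farthest from it.

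Promoter windows from RefSeq, build GRCr8, ran from 250 bases before to 50 bases after the gene start and matched 27 of the 41 members by symbol. Both strands were searched for the E2F site (TTTGGCGC, TTTGCCGC, TTTCGCGC or TTTCCCGC), for the CHR element of mitotic genes (TTTGAA or TTCGAA), for the CCAAT box (CCAAT) and for the E-box (CACGTG), with overlapping matches counted separately. An E2F match was present in 6 of 8 windows of replication members and 1 of 13 of G2 and mitosis, against 2.25% of 27457 windows of all genes. A CHR match was present in 8 of 13 windows of G2 and mitosis and 3 of 8 of replication, against 19.5% of all. A CCAAT match was present in 10 of 13 and 6 of 8 of these windows, against 37.7% of all. An E-box match was present in 2 of the 27, Cdk4 and Mcm2, against 6.65% of all. A match is a run of letters and not a measured binding site.

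The 250 bases before the gene start are printed for the 6 members that had separate groups and a window. Capitals mark matches that lie whole within the printed stretch.
Mcm3 (chr9:30733747-30733996, - strand): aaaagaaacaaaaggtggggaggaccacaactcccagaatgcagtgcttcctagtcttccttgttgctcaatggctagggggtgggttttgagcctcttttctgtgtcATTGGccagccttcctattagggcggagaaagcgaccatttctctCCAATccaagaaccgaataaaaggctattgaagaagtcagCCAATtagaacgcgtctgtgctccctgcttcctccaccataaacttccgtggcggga
Tyms (chr9:120776084-120776333, - strand): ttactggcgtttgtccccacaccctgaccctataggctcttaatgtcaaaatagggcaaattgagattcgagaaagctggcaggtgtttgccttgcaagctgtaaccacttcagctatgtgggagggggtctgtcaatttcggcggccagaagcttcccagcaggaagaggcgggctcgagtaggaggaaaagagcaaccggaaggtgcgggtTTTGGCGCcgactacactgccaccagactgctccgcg
Rrm1 (chr1:166235654-166235903, + strand): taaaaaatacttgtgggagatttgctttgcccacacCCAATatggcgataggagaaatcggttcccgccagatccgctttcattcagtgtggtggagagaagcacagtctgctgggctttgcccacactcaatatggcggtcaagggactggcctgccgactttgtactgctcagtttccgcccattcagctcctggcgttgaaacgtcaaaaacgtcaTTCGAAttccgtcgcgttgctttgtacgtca
Bub1 (chr3:135504922-135505171, - strand): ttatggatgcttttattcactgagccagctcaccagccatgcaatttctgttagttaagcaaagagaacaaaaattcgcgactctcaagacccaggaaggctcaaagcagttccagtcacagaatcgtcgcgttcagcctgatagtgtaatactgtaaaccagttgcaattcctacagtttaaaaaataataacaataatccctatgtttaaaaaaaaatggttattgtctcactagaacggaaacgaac
Plk1 (chr1:186147408-186147657, + strand): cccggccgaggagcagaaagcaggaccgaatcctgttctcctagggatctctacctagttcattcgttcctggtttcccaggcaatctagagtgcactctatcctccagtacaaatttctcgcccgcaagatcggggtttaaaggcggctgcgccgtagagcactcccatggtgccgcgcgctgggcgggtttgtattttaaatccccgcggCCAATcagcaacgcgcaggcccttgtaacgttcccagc
Btg1 (chr7:33227899-33228148, + strand): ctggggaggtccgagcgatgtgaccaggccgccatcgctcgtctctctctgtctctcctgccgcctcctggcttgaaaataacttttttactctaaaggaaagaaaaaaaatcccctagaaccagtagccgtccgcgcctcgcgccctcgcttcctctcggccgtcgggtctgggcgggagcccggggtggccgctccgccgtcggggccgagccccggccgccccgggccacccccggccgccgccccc
Mcm3 has 3 CCAAT matches, and an E2F match that begins 6 bases before its start runs past the printed stretch. Another E2F match of Mcm3 lies just beyond the start. Tyms has an E2F match that begins 37 bases before the start. Rrm1 has a CCAAT match and a CHR match that begins 31 bases before the start, and no E2F match. Plk1 has a CCAAT match that begins 38 bases before the start and a CHR match just beyond the start. The windows of Bub1 and Btg1 held none of the words searched.

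Ccnd2, which encodes cyclin D2, was the most abundant G1 member and its groups were separate. It stood at 73.0, 66.7 and 69.0 FPKM with saline and 85.2, 85.3 and 93.7 FPKM with exosomes. All of the exosome values were above the highest saline value, at means of 69.6 ± 3.18 and 88.1 ± 4.85 FPKM (SD, n = 3 each) and a ratio of 1.27. On the log2 scale limma put the difference at 0.34 ± 0.10 (SE; adjusted p = 0.259). Ccnd3, the cyclin D3 gene, stood at 58.6, 42.1 and 49.4 FPKM with saline and 54.1, 64.4 and 58.7 FPKM with exosomes. Its groups overlapped, at 0.24 ± 0.14 (SE; adjusted p = 0.402) in limma. Ccnd1, the cyclin D1 gene, was lower, at 5.10 to 13.97 FPKM over the 6 libraries, with overlapping groups.

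The D-type cyclins kept the same order in every library. Ccnd2 made up 52.3% to 54.3% of their summed FPKM with saline and 55.1% to 57.7% with exosomes. Ccnd3 made up 34.3% to 42.0% and Ccnd1 3.29% to 11.4% over all libraries. The summed level was 130.2 ± 8.56 FPKM with saline and 155.4 ± 8.08 FPKM with exosomes (SD, n = 3 each). Of the partner kinases, Cdk4 stood at 32.6 to 39.6 FPKM and Cdk6 at 0.829 to 1.59 FPKM, a ratio of 24.1 to 45.8 within a library. Neither kinase gene had separate groups.

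Myc, which encodes a growth-promoting transcription factor, had the largest positive difference of the set, by log2 difference and by ratio of means. It stood at 3.03, 1.71 and 2.60 FPKM with saline and 3.86, 5.61 and 6.42 FPKM with exosomes. The groups did not overlap, and exosome 1 was closest to the saline range. The means were 2.45 ± 0.671 and 5.30 ± 1.31 FPKM (SD, n = 3 each), a ratio of 2.17, and limma put the log2 difference at 0.87 ± 0.22 (SE; adjusted p = 0.255). Cdk2, the kinase of cyclin E, stood at 5.13, 5.31 and 5.27 FPKM with saline and 3.45, 6.28 and 4.04 FPKM with exosomes. Exosome 2 was above and exosome 1 and 3 below the narrow saline range. Of the cyclin E genes, Ccne2 stood at 2.39 to 3.27 FPKM with overlapping groups, and Ccne1 was nearly absent, with 0 to 12 reads per library. E2f1, an activator of S-phase genes, had means of 2.34 ± 0.593 and 1.43 ± 0.443 FPKM (SD, n = 3 each) and overlapping groups (adjusted p = 0.321 in limma).

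Pcna, the sliding clamp of DNA polymerase that also serves repair, was the most abundant replication member. It stood at 29.2, 30.9 and 28.3 FPKM with saline and 42.0, 30.7 and 42.2 FPKM with exosomes. Exosome 1 and 3 were high, and exosome 2 lay within the saline range. On the log2 scale limma gave 0.35 ± 0.14 (SE; adjusted p = 0.304). The summed level of the helicase genes Mcm2 to Mcm7 was 18.1, 19.8 and 22.5 FPKM with saline and 14.3, 22.6 and 15.1 FPKM with exosomes. Here exosome 1 and 3 were below all saline libraries and exosome 2 just above the highest.

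The 6 helicase subunits work as a ring with 1 copy of each, but their transcript levels were unequal. Mcm7 ranged from 4.86 to 10.03 FPKM, Mcm4 from 4.11 to 6.26 FPKM, Mcm2 from 1.83 to 3.29 FPKM, Mcm6 from 1.36 to 2.42 FPKM and Mcm5 from 0.293 to 0.701 FPKM, all with overlapping groups. Mcm3 was the helicase gene with separate groups, at 0.732, 0.667 and 0.642 FPKM with saline and 0.774, 0.899 and 0.987 FPKM with exosomes. Its mean was under 1 FPKM, and the limma fit with no filter gave 0.17 ± 0.08 (SE; adjusted p = 0.462).

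The nucleotide supply genes Rrm1 and Tyms both had exosome libraries below saline. Rrm1, the large subunit of ribonucleotide reductase, stood at 10.8, 10.5 and 11.6 FPKM with saline and 7.28, 10.34 and 7.39 FPKM with exosomes. The groups were separated only by the small gap between saline 2 and exosome 2. The ratio of the means was 0.761, with -0.37 ± 0.15 (SE; adjusted p = 0.305) on the log2 scale in limma. Tyms, thymidylate synthase, stood at 3.93, 4.25 and 4.58 FPKM with saline and 3.37, 3.32 and 3.21 FPKM with exosomes. The exosome libraries were close to each other and below all saline libraries, at a ratio of 0.776 and -0.29 ± 0.12 (SE; adjusted p = 0.313) in limma. Rrm2, the small subunit made in S phase, was almost absent, with 0 to 12 reads per library. In the GRCr8 gene table Rrm2 overlaps Cys1 by 1917 bases, so reads of these genes may not be separable. Rrm2b, the alternative small subunit that resting cells use, is no member and was chosen after its values were seen. It stood at 7.20, 10.39 and 10.7 FPKM with saline and 4.25, 9.29 and 5.03 FPKM with exosomes, above Rrm2 in every library.

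Of the genes of G2 and mitosis, 2 had a mean of at least 1 FPKM. Kif20a, a kinesin of cell separation, stood at 1.53, 1.45 and 1.61 FPKM with saline and 1.39, 1.88 and 1.03 FPKM with exosomes. Its groups overlapped. In the GRCr8 gene table Kif20a overlaps Cdc23 by 1890 bases, and Cdc23 stood at 18.5 to 25.1 FPKM, so reads of these genes may not be separable. Bub1, a kinase of the spindle checkpoint, stood at 1.17, 1.76 and 1.55 FPKM with saline and 1.07, 0.936 and 1.06 FPKM with exosomes. Its groups were separate, with -0.30 ± 0.16 (SE; adjusted p = 0.380) on the log2 scale in limma.

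Below 1 FPKM, separate groups occurred in both directions. Tpx2, a spindle assembly factor that activates Aurora A, stood at 0.562, 0.542 and 0.760 FPKM with saline and 0.376, 0.324 and 0.376 FPKM with exosomes. All exosome values were below the saline values, on 26 to 74 reads per library, at a ratio of 0.577 and -0.25 ± 0.07 (SE; adjusted p = 0.364) in the limma fit with no filter. Plk1, the polo-like kinase of mitotic entry, stood at 0.122, 0.353 and 0.308 FPKM with saline and 0.385, 0.455 and 0.471 FPKM with exosomes. The gap between saline 2 and exosome 1 was small and saline 1 was low, on 9 to 46 reads per library. The limma fit with no filter gave 0.19 ± 0.08 (SE; adjusted p = 0.418). Plk1 overlaps Ern2 in the gene table, and Ern2 was listed at 0 FPKM in every library except exosome 3, at 0.0154 FPKM.

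The other mitotic genes had overlapping groups, and all but Mki67 and Foxm1 had under 100 reads in every library. Cdk1, the mitotic kinase, had 1 to 22 reads per library, and its cyclin genes Ccnb1 and Ccnb2 had 16 to 30 and 2 to 9. Top2a, the topoisomerase that untangles sister DNA, had 16 to 51 reads, and Cenpf, which encodes a kinetochore protein, 19 to 40. Counts as small as these leave a wide sampling error. The cyclin A gene Ccna2 stood at 0.321 to 0.667 FPKM, the Aurora kinase genes Aurka at 0.416 to 0.681 and Aurkb at 0.134 to 0.320 FPKM, and the mitotic transcription factor gene Foxm1 at 0.7498 to 1.06 FPKM. The checkpoint gene Bub1b stood at 0.0165 to 0.0674 FPKM, the survivin gene Birc5 at 0.230 to 0.932 FPKM, the spindle kinesin gene Kif11 at 0.0499 to 0.148 FPKM and the ubiquitin-conjugating enzyme gene Ube2c at 0.0294 to 0.343 FPKM. Kif11 overlaps Ide by 22010 bases in the gene table, so its few reads may not all be its own. The sum of all 18 was 6.71, 8.34 and 8.97 FPKM with saline and 6.78, 7.70 and 6.54 FPKM with exosomes. This sum was below the level of the single brake gene Cdkn1c in each of the 6 libraries. Saline 3 was the highest library for 6 of the 18 genes and for 13 of all 41 members. The share over all genes was not counted.

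Btg1, an antiproliferative gene of the BTG/TOB family that is high in resting cells, had the largest difference of the set on the log2(FPKM + 1) scale. It stood at 99.7, 170.8 and 132.9 FPKM with saline and 55.1, 66.7 and 52.7 FPKM with exosomes. Every exosome library was below every saline library, and the spread was wider within the saline group. The means were 134.5 ± 35.6 and 58.2 ± 7.46 FPKM (SD, n = 3 each), 2.31-fold lower with exosomes, and limma put the log2 difference at -1.17 ± 0.20 (SE; adjusted p = 0.219). By ratio of means Ccnb2 was further apart, 2.33-fold lower, on 2 to 9 reads per library and with overlapping groups. By p, Btg1 was at rank 23 of the 11742 genes tested. Saline 2, the library with the high adipocyte markers, was highest for Btg1, and without it the log2 difference was -0.98 (adjusted p = 0.461 in limma). With library weights the adjusted p of Btg1 in limma was 0.0114. Over the other alternatives, leaving aside the fit without both exosome 1 and 3, it was 0.0628 to 0.543. Cdkn1b, which encodes the CDK inhibitor p27, stood at 36.3, 45.2 and 48.9 FPKM with saline and 28.7, 51.0 and 32.3 FPKM with exosomes. Cdkn1c, which encodes the related p57, stood at 7.54, 12.3 and 13.7 FPKM with saline and 7.20, 11.4 and 6.68 FPKM with exosomes. For both inhibitors exosome 1 and 3 were below all saline libraries and exosome 2 was not. In limma the log2 differences were -0.25 ± 0.22 (SE; adjusted p = 0.571) and -0.37 ± 0.26 (SE; adjusted p = 0.478), and they became 0.24 and 0.06 in the absence of both exosome 1 and exosome 3.

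**Figure D3:**
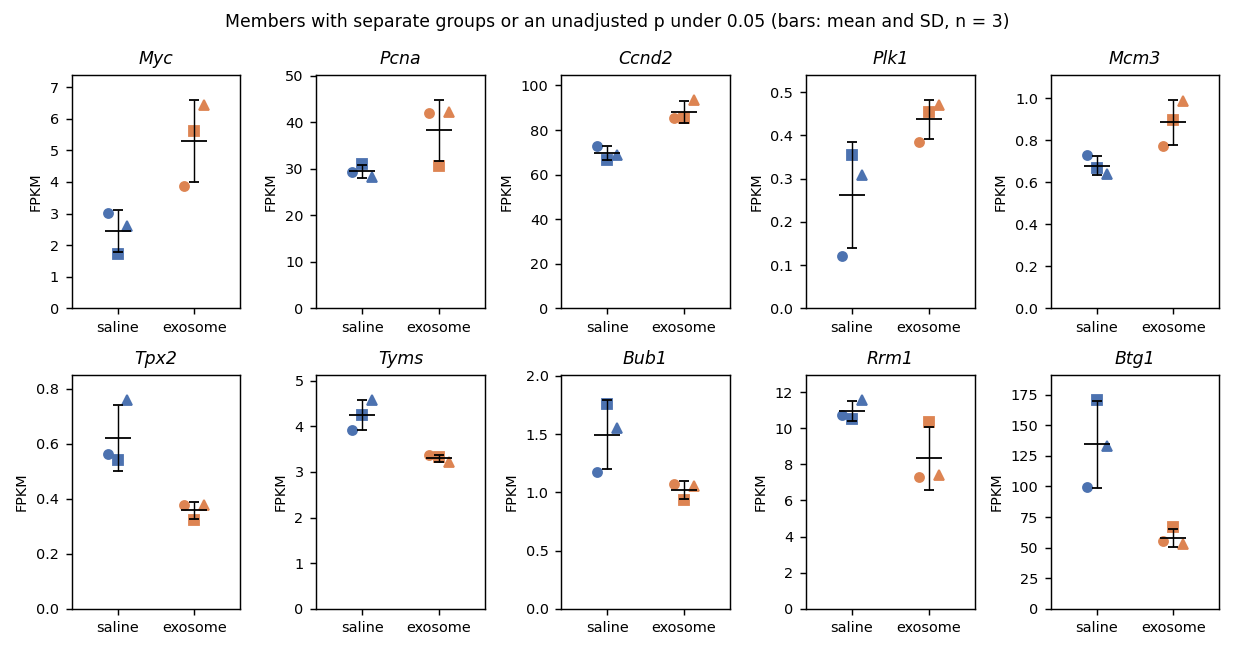
FPKM of the 9 members with separate groups and of Pcna, whose unadjusted p was under 0.05, in each saline (blue) and exosome (orange) library, with circles, squares and triangles for libraries 1, 2 and 3, mean and SD (n = 3) in black and axes from 0. Exosome values of Btg1 (52.7 to 66.7 FPKM) are clear of the saline values, while the gaps of Plk1, Mcm3 and Rrm1 are small.

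Exosome 2 stood apart from exosome 1 and 3 for many members. Of the 21 tested members, 11 had exosome 1 and 3 both below all saline libraries (Cdk2, Mcm2, Mcm4, Mcm7, Tyms, Rrm1, Bub1, Kif20a, Btg1, Cdkn1b and Cdkn1c), which is 52.4%, against 33.5% of all tested genes. Over all 41 members there were 14 such genes, which is 34.1%. The 33.5% covers only tested genes, while 20 of the 41 were under the filter of 1 FPKM. Exosome 2 was above both in 9 of the 11, and in 3418 of the 3936 tested genes with the same placing of exosome 1 and 3. Without that condition it was above both for 52.4% of the tested members and 57.1% of all tested genes. Without exosome 2, 10 of the 21 members had an unadjusted p under 0.05 in limma, 7 of them lower, against 27.3% of all tested genes and 19.1% lower, and 0 passed the adjusted threshold. Of 4 heat shock genes chosen after values were seen, Hsph1 and Hsp90aa1 were above all saline libraries in exosome 1 and 3 only. Hsph1 stood at 38.4, 35.5 and 83.5 FPKM with saline and 217.9, 41.9 and 512.4 FPKM with exosomes. Dnajb1 lay inside the saline range of 21.5 to 102.5 FPKM in all exosome libraries, and Hspa1b was not high in exosome 1 and 3. The part of heat shock in these values was not tested. For Ccnd2, Myc, Tyms, Rrm1, Bub1 and Btg1 all 3 exosome libraries lay on 1 side of saline.

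**Figure D4:**
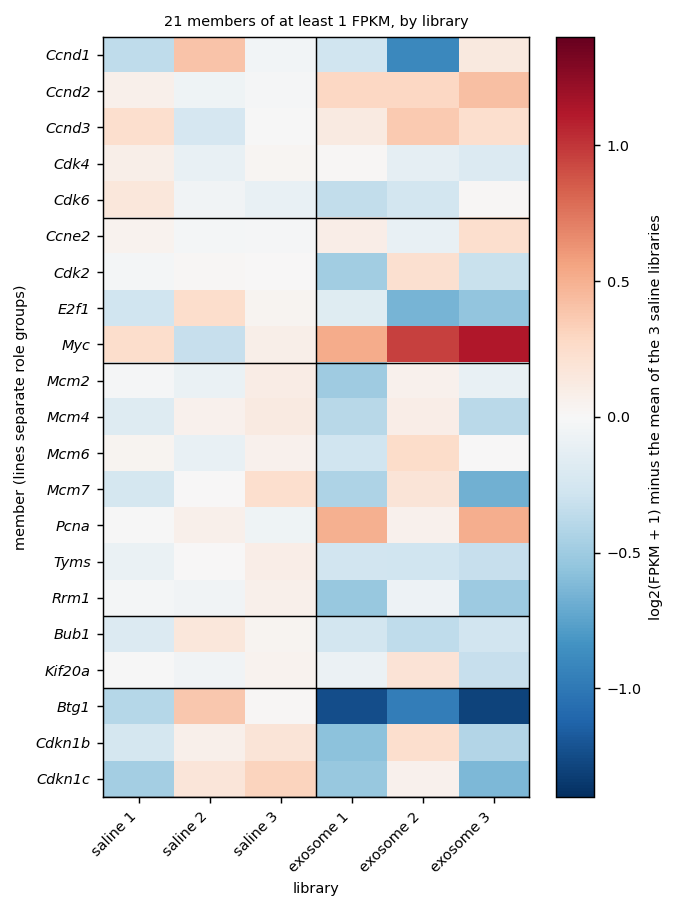
Colour gives log2(FPKM + 1) minus the mean of the 3 saline libraries for the 21 members with a mean of at least 1 FPKM, in each library, with lines between role groups. Btg1 is blue and Myc and Ccnd2 are red in all 3 exosome columns, whereas Cdk2, Mcm4, Mcm7, Cdkn1b and Cdkn1c are blue in exosome 1 and 3 and pale or red in exosome 2.

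Around the members, 5 further lists of the same pathways held 0 genes past the adjusted threshold in limma in either direction. Of 42 other genes of replication origins and forks, 27 were tested, 24 lower and 3 higher, with a median log2 difference of -0.27, where 39.3% of all tested genes were higher and the median was -0.07. At an unadjusted p under 0.05 there were 6 of them, all lower, against 9.24% of all tested genes lower. Orc6, a subunit of the origin recognition complex, stood at 3.10, 3.14 and 4.71 FPKM with saline and 2.10, 2.02 and 1.45 FPKM with exosomes. Its groups were separate, at -0.69 ± 0.19 (SE; adjusted p = 0.255) in limma. The clamp loader gene Rfc3 (-0.48, 0.261), the origin gene Orc3 (-0.62, 0.275) and the DNA ligase gene Lig1 (-0.49, 0.284) came next by p, with the log2 difference and adjusted p in brackets. Exosome 1 and 3 were both below all saline libraries for 17 of the 27, or 63.0%, against 33.5% of all tested genes.

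Of 46 other mitotic genes 10 were tested, 7 lower and 3 higher, with a median log2 difference of -0.13, and 31 of the 46 stayed under 1 FPKM in every library. Gtse1, a gene of G2 and S phase, and the spindle checkpoint gene Mad2l1 had separate groups, at -0.65 ± 0.22 (SE; adjusted p = 0.281) and -0.38 ± 0.16 (SE; adjusted p = 0.310) in limma. Anln, which encodes the cytokinesis protein anillin, and the condensin gene Smc2 overlapped, at 0.76 ± 0.40 (SE; adjusted p = 0.376) and -0.29 ± 0.16 (SE; adjusted p = 0.384) in limma. Counted over all 46 whatever their level, 6 had separate groups, which is 13.0%, against 16.9% of the genes detected. Exosomes were below in 5 (background 9.75%) and above in 1 (background 7.15%), which was Kif2c at 0 to 7 reads per library. Among the 18 members of G2 and mitosis, Bub1 and Tpx2 were below and Plk1 above, which is 16.7%.

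Of 19 other E2F, pocket protein and MuvB genes 14 were tested, 8 higher and 6 lower, with a median log2 difference of 0.015 and no separate groups. The E2F family genes E2f5 (0.30, 0.362), E2f6 (0.38, 0.366) and E2f2 (-0.32, 0.401) and the MuvB gene Lin52 (-0.29, 0.444) had the smallest p, with the limma log2 difference and adjusted p in brackets. Of 11 genes of the MYC network 8 were tested, 4 higher and 4 lower. The antagonist genes Mxd1 (-0.48, 0.354) and Mnt (0.37, 0.393), the ubiquitin ligase gene Fbxw7 (-0.20, 0.461) and the partner gene Mlx (-0.13, 0.561) had the smallest p. Of these, only Fbxw7 had separate groups. Counted over all 11 whatever their level, 27.3% had separate groups, against 16.9% of the genes detected. Exosomes were below for 1, Fbxw7 (background 9.75%), and above for 2 (background 7.15%). These 2 were Mycl, at 8 to 35 reads per library, and Mxd3, at 0 to 6 reads.

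Among the other CDK inhibitor and BTG/TOB genes 6 were tested, 2 higher and 4 lower. Btg2, a close relative of Btg1, stood at 89.2, 224.8 and 189.4 FPKM with saline and 58.2, 55.8 and 73.7 FPKM with exosomes. All exosome libraries were below saline, at -1.32 ± 0.32 (SE; adjusted p = 0.255) in limma, and saline 2 was again the highest library. Without saline 1 the adjusted p of Btg2 in limma was 0.0358, and over all alternatives it ranged from 0.0114 to 0.790. Tob2, of the TOB branch of the family, stood at 22.6, 28.0 and 27.1 FPKM with saline and 40.5, 53.1 and 39.9 FPKM with exosomes. All exosome libraries were above saline, at 0.75 ± 0.15 (SE; adjusted p = 0.237) in limma. Btg3 also had exosome libraries above saline (0.32, 0.289), and Tob1 overlapped (-0.38, 0.416), with the limma log2 difference and adjusted p in brackets. Among the 6 tested, 2 had separate groups with exosomes above (background 9.40%) and 1 with exosomes below (background 11.7%). At an unadjusted p under 0.05 in limma, 2 were higher (background 6.75%) and 1 lower (background 9.24%).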

How the data were processed

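The 6 aorta libraries were made with a SMARTER mRNA-seq kit, per the labels' protocols, and the authors deposited FPKM per gene symbol with 1 column per sample. The submitters' processing notes name DESeq2 1.28.1 without saying what it was used for. No aligner, counter, strand setting, genome build or annotation is given in the sources used here, so reads of overlapping genes and of near-identical copies may be shared. The labels do not state that each library is a separate animal. The p-values therefore cover only the spread between these libraries, which may be technical.

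Differences were tested with limma (version 3.58.1, R version 4.3.3) on log2(FPKM + 1), two-sided and with an intensity trend. Tested were 11742 genes whose mean reached 1 FPKM, adjusted together by Benjamini-Hochberg at 0.05. This scale understates the change of low genes. Members with a lower mean were read from the same fit on the 18430 genes above 0 in any library. Whole reads were recovered from the FPKM steps for 100.0% of these genes (tolerance 0.02 reads) and served for read numbers and for voom. The shortest gene length that fitted was taken. Read numbers of genes with reads in few libraries may therefore be too low, and the 100.0% does not check them. Every pair of libraries differed by more than sampling noise, with a chi-square per gene of at least 57.47.

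The members, lists, tests and alternatives were chosen with earlier results of these data known. Library values are given for members with separate groups or an unadjusted p under 0.05 and for the 2 most abundant members of each role. From each further list the 4 tested genes of smallest p are named. Alternatives were other pseudocounts, filters, scalings and models, a replicate block and leaving out libraries. Scripts ran in Python 3.11.15 (numpy 2.4.6, pandas 2.3.3, matplotlib 3.10.9).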

Additional observations from a re-analysis of the deposited data

How the results depend on the processing

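No member passed the threshold under pseudocounts of 0.1 and 0.01, no filter, a mean of at least 5 FPKM, equal sums, the median of ratios, quantile normalization, voom, no trend, the replicate block or any library left out. With library weights 12 members passed, as did 3268 genes in all, against 1 with equal weights. The weights ran from 0.305 for exosome 2 to 9.20 for exosome 1, and their estimation stopped before reaching its tolerance. The count over all genes was 2 with quantile normalization and 0 to 9 with 1 library left out. It was 0 without saline 3 or exosome 1, 9 without saline 1, 4 without exosome 2 and 2 without exosome 3. With exosome 1 and 3 both absent it was 0. The median log2 difference of the tested members, -0.194, was -0.063 with no filter, which takes in the low members, and 0.062 in the absence of both exosome 1 and 3. It was -0.265 to -0.119 with 1 library left out. The median of all genes in the same fits was -0.073 in the main fit and -0.025 with no filter. It was 0.027 in the absence of both exosome 1 and 3 and -0.117 to -0.041 with 1 library left out. Of 557 pairs of a named gene and an alternative, 528 kept their direction and side of the threshold, 24 passed it and 5 reversed. In the absence of both exosome 1 and 3 the reversed values were 0.237 for Cdkn1b, 0.062 for Cdkn1c, -0.025 for Anln and 0.085 for Lin52, and with library weights -0.018 for Mnt. The cause was not tested.

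Same-numbered libraries did not deviate together, with correlations of 0.068, 0.096 and -0.165 across genes, so the numbers were not taken to pair the samples. With the replicate block 0 members and 1 gene in all passed, and 3 members in place of 5 had an unadjusted p under 0.05. Depth limits the 20 members under 1 FPKM, of which all but Mki67, Mcm3 and Foxm1 had under 100 reads in every library.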
